A study of Mus musculus with 4 samples.

Results

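The 7 genes described here encode the protein side of the switch that releases paused RNA polymerase II: Hexim1, Larp7 and Mepce of the 7SK particle, Cdk9, Ccnt1 and Ccnt2 of the kinase P-TEFb, and Supt5, a subunit of the pausing and elongation factor DSIF. They were chosen by name from 12390 genes with an RPKM value, that is, reads scaled to transcript length and library total, and all 7 had one. RNA was measured in mouse hematopoietic stem cells sorted from bone marrow (Lin-, Sca-1+, c-Kit+, CD48-, CD150+), about 5000 cells per library, by a Smart-Seq V4 protocol that copies polyadenylated RNA. The control group is 2 libraries titled Ddx21_fl, from mice with floxed Ddx21 alleles and genotype WT in the labels; the knockout group is 2 libraries titled Ddx21_CKO, genotype KO, from mice that carry the same floxed alleles and CAG-CreERT2, a tamoxifen-inducible Cre recombinase under a promoter active in most tissues. Floxed alleles are thus common to both groups, and Cre is present in the knockout group alone, so that Cre and loss of Ddx21 cannot be told apart. The sources used here give no age, strain or tamoxifen dosing, nor whether control mice received it. Separate animals are not named for the libraries of a group, and p-values therefore cover the spread among these samples alone, and that spread may be technical. For limma on the deposited values it is a spread taken over genes of like level, not each gene's own.

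Shortly after initiation, RNA polymerase II often stops close to the start site, held by DSIF and the negative elongation factor NELF. P-TEFb, a dimer of the kinase Cdk9 with cyclin T1 or T2, phosphorylates both factors and the polymerase and so starts productive elongation. Much of P-TEFb is kept inactive on 7SK, a small noncoding RNA that Mepce caps, Larp7 stabilises and Hexim1 uses to inhibit the kinase. Ddx21, a nucleolar DEAD box RNA helicase, is known to bind 7SK and to help free P-TEFb from it at polymerase II genes, and the comparison asks what its targeted deletion changes in the sorted cells. The 7SK RNA itself was not analysed here.

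Among the 7, Hexim1 had the largest ratio between the groups, Larp7 is its partner on 7SK, and Supt5 was the one member whose deposited values overlapped between control and knockout. For these 3 the sequence that precedes the gene and lies outside every GENCODE M21 exon is shown, 5′ to 3′ on the gene's strand, from RefSeq windows of build GRCm38.p6. Windows span 250 bases before to 50 bases after the RefSeq start. Capitals mark matches on either strand to 8 motifs, which were chosen after the windows had been read: TATAAA, the common form of the promoter box bound by the basal machinery, the variant TATATAA of that same box, the NRF1 core motif GCATGCGC, the element CCAAT bound by NF-Y, the Sp1 family element GGGCGG, the cyclic AMP response element TGACGTCA, the ETS family motif CCGGAAG and the E-box form CACGTG.
Hexim1, chr11:103116075-103116230, plus strand: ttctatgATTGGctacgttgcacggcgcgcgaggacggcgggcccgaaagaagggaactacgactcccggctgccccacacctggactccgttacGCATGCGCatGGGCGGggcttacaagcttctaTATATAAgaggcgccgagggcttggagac
Larp7, chr3:127553350-127553488, minus strand: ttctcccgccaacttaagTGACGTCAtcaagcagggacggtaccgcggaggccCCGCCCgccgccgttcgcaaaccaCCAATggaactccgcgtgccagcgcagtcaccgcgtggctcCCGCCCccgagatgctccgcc
Supt5, chr7:28338747-28338969, minus strand: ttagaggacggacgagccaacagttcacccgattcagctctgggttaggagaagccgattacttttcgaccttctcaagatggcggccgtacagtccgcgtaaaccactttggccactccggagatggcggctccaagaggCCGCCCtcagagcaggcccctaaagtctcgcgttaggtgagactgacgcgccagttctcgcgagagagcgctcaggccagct

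Of the 7 members, 6 matched a promoter window, and GGGCGG was found in all 6, against 35.9% of the 27025 windows. The member windows had a GC content of 61.0% to 78.3%, against a median of 52.7% over all windows, and the part of GC content in these matches was not tested. TATATAA occurred in the Hexim1 window alone of the 6, against 3.46% of all windows. Its last base lies 23 bases before the GENCODE start of the gene at chr11:103116231. The RefSeq start, from which the window was set, lies downstream at chr11:103116325, so that the motif is farther from that start. GCATGCGC was also in the Hexim1 window alone (2.80% of all windows), and TGACGTCA in the Larp7 window alone (1.88%). CCAAT was in the Hexim1, Larp7, Cdk9 and Ccnt2 windows (37.9% of all windows), and CCGGAAG in those of Cdk9 and Ccnt1 (9.12%). TATAAA and CACGTG, in 14.2% and 7.24% of all windows, matched no member. These matches describe letters and not binding. Since the motifs were chosen after the windows had been read, the shares of all windows are no test of how unusual a match is.

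Control libraries held the targeted gene, Ddx21, at 10.95 and 12.1 RPKM, and knockout libraries held it at 6.20 and 6.60 RPKM. The log2 fold change on log2(RPKM + 1) was -0.76 (SE 0.30, limma adjusted p = 0.158), with both knockout libraries lower and short of the threshold of 0.05. On the recovered reads voom called it lower, at -1.22 (SE 0.16, adjusted p = 0.0334). Limma after the rescaling described next gave -1.08 (adjusted p = 0.0999), short of the threshold. Voom used the factors of that same rescaling in its library sizes, so the 2 fits are not independent. The sources used here do not name the floxed exons, so what the remaining RNA encodes is not known. Whether some sorted cells kept an undeleted gene was not tested. The libraries held 43218012 to 62871439 reads, recovered from the deposited values. Knockout values were higher for most genes: relative to the control mean, the median over the 11742 tested genes was 0.12 in knockout replicate 1 and 0.50 in knockout replicate 2, and the median log2 fold change was 0.31. Rescaling by a trimmed mean of M values (TMM-type) brought it to 0.01, and the RPKM values of each member are given on both scales. Of the stem cell markers fixed for the sort, 11 of 12 had a value and their summed level was 217 to 278 RPKM in control and 335 to 446 RPKM in knockout, with 3 called higher by limma on the deposited values. The 12 neutrophil and monocyte markers summed to 69490 to 72057 RPKM in control and 31622 to 49130 RPKM in knockout, with 11 called lower, and 6 of 9 osteoblast and stroma markers, those with a value, to 258 to 445 and 1567 to 6280 RPKM, with all 6 called higher. Of the other markers with a value, 2 of 3 for megakaryocytes were called higher and 1 of 5 erythroid markers lower, and 0 of 2 endothelial and 0 of 2 B and T cell markers tested were called. The all-gene shares called were 3.33% higher and 0.86% lower. Limma after rescaling and voom called 0 genes of any of these lists, and the former 0 of all tested genes. Rescaling took the median log2 fold change of neutrophil and monocyte markers from -0.88 to -1.25, with 11 of 12 lower without overlap. Osteoblast and stroma markers went from 3.12 to 2.77, with 6 of 6 higher without overlap. Stem cell markers went from 0.69 to 0.39, with 8 of 11. Over all tested genes the rescaled shares without overlap were 27.9% higher and 26.9% lower. No marker with a value was without reads in any library. These markers differed between the same groups as the members, and their part in the results below was not tested. Within the knockout group, osteoblast and stroma markers summed to 6280 RPKM in replicate 1 and 1567 RPKM in replicate 2. Stem cell markers summed to 335 and 446 RPKM and neutrophil and monocyte markers to 49130 and 31622 RPKM in the same order. Each member was highest in replicate 2. In bulk RNA, fewer cells of a type and less RNA per cell cannot be told apart.

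None of the 6 members tested was called in either direction by limma on the deposited values, on which 3.33% of all tested genes were called higher and 0.86% lower. Their log2 fold changes ran from 0.35 to 0.57 with a median of 0.51, against 0.31 over all tested genes. The smallest adjusted p was 0.307, and 0 of 6 had an unadjusted p under 0.05, as 1620 of all 11742 tested genes did with higher and 288 with lower values. On the same genes, voom on the recovered reads also called 0 of 6, where it called 0.417% of all genes higher and 0.187% lower, with 1 of 6 (Ccnt2) higher at an unadjusted p under 0.05, as were 1085 of 11737 genes. In 5 of the 6 every knockout value lay above every control value, as was so for 55.5% of tested genes. Among all listed genes that share was 56%, and 29.1% after rescaling; Hexim1 is not counted here, since it is listed through its knockout values. After rescaling that held for 4 of the 6, against 27.9% of tested genes, the median of the 6 was 0.20 and limma called 0 of 6, as of all tested genes. All 7 members had their highest deposited value in knockout replicate 2, the library with the largest general shift.

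**Figure D1:**
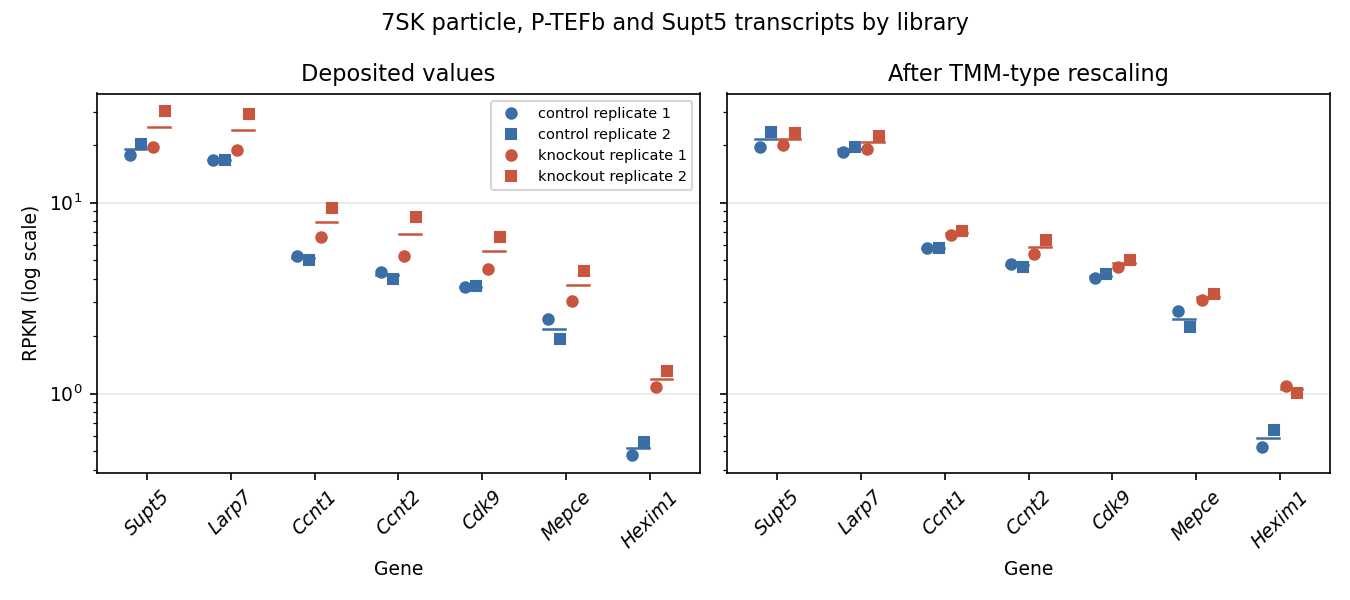
RPKM of each member in each of the 4 libraries on a log axis (blue control, red knockout, circles replicate 1, squares replicate 2, short lines the group means), as deposited and after TMM-type rescaling. Deposited knockout values lie above both control values except for Supt5. After rescaling the gap narrows for each member, and Supt5 and Larp7 overlap between the groups.

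The inhibitor Hexim1 (ENSMUSG00000048878, chr11:103116231-103119725, a gene with a single exon) was the lowest member, with control values of 0.475 and 0.557 RPKM and knockout values of 1.08 and 1.32 RPKM. Both knockout libraries lay above both control libraries, and the group means of 0.516 ± 0.0581 RPKM (control) and 1.198 ± 0.170 RPKM (knockout; SD, n = 2) had a ratio of 2.32. The values rest on 93, 123, 164 and 201 recovered reads in control replicates 1 and 2 and knockout replicates 1 and 2. Exact Poisson 95% intervals, which cover counting error only, reached 0.665 RPKM at most in control and started at 0.919 RPKM at the lowest in knockout.

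Hexim1 enters the deposited table through its knockout values: the lowest maximum over the 4 libraries of any listed gene is 1.0063 RPKM, and both of its control values are lower than that. A gene listed in this way had to be higher in some library, so that its ratio is a description. Its mean of 0.857 RPKM also lies under the minimum of 1 RPKM for testing. In a limma fit without that minimum its log2 fold change was 0.53 (SE 0.27, unadjusted p = 0.0441, adjusted p = 0.284 over 12390 genes, of which 3.54% were called higher and 0.92% lower), a scale on which the added 1 RPKM shrinks the change of so low a gene. On recovered reads, voom without the minimum gave 0.84 (SE 0.29, unadjusted p = 0.0180, adjusted p = 0.198). At an unadjusted p under 0.05, the limma and voom fits without the minimum had 1770 and 1220 genes higher. How Hexim1 came to be listed limits these p-values too, so they are no test of a rise. After rescaling, Hexim1 stood at 0.526, 0.646, 1.10 and 1.003 RPKM in the same order of libraries, a ratio of 1.79.

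Larp7 (ENSMUSG00000027968, chr3:127536714-127553349), which binds the end of 7SK and protects it, had control values of 16.7 and 16.8 RPKM and knockout values of 18.8 and 29.3 RPKM. Its log2 fold change was 0.46 (SE 0.24, adjusted p = 0.307), with knockout replicate 1 little above the controls and replicate 2 far above them. After rescaling the values were 18.5, 19.4, 19.2 and 22.3 RPKM, the groups overlapped and the log2 fold change was 0.12.

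Mepce (ENSMUSG00000029726, chr5:137781906-137787655), the enzyme that methylates the cap of 7SK, stood at 2.45 and 1.92 RPKM in control and 3.04 and 4.36 RPKM in knockout (log2 fold change 0.55, SE 0.33, adjusted p = 0.368). The groups did not overlap before or after rescaling, where Mepce was at 2.71, 2.23, 3.11 and 3.32 RPKM and its log2 fold change was 0.28 (adjusted p = 0.354).

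The kinase gene Cdk9 (ENSMUSG00000009555, chr2:32705784-32713076) had nearly equal control values, 3.62 and 3.65 RPKM, and knockout values of 4.51 and 6.58 RPKM. Its log2 fold change was 0.48 (SE 0.34, adjusted p = 0.417) and 0.18 after rescaling, where the values were 4.01, 4.23, 4.61 and 5.01 RPKM and the groups still did not overlap.

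Cyclin T1, the main partner of Cdk9, is encoded by Ccnt1 (ENSMUSG00000011960, chr15:98538689-98570923), with values of 5.24 and 4.999 RPKM in control and 6.59 and 9.33 RPKM in knockout (log2 fold change 0.53, SE 0.32, adjusted p = 0.370). Rescaled values were 5.81, 5.80, 6.74 and 7.10 RPKM, 0.22 higher in knockout on the log2 scale with groups that did not overlap.

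Ccnt2 (ENSMUSG00000026349, chr1:127774164-127808061), which encodes the alternative cyclin T2, had values of 4.33 and 3.98 RPKM in control and 5.26 and 8.37 RPKM in knockout. It had the largest log2 fold change of the 6 tested members on the deposited values, 0.57 (SE 0.33, adjusted p = 0.358). After rescaling it stood at 4.80, 4.62, 5.37 and 6.37 RPKM with a log2 fold change of 0.26, and voom on recovered reads gave 0.32 (SE 0.13, unadjusted p = 0.0415, adjusted p = 0.274).

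Supt5 (ENSMUSG00000003435, chr7:28314891-28338746) encodes the large subunit of DSIF, which P-TEFb turns from a pausing into an elongation factor. Its values were 17.7 and 20.2 RPKM in control and 19.6 and 30.3 RPKM in knockout, so that knockout replicate 1 fell between the control libraries. The log2 fold change was 0.35 (SE 0.23, adjusted p = 0.407) on the deposited values and -5.2e-05 after rescaling, where the libraries stood at 19.6, 23.5, 20.0 and 23.0 RPKM.

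Parts of 3 members are covered by exons of other genes in GENCODE M21, and the sources used here do not say whether counting used strand. Ccnt1 shares 695 exonic bases (7.59%) with the opposite-strand gene 9330020H09Rik, Supt5 433 bases (7.51%) with the opposite-strand gene Gm44709, and Cdk9 155 bases (3.36%) with Mir2861 and Mir3960. Reads from these stretches cannot be assigned to 1 gene.

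**Figure D2:**
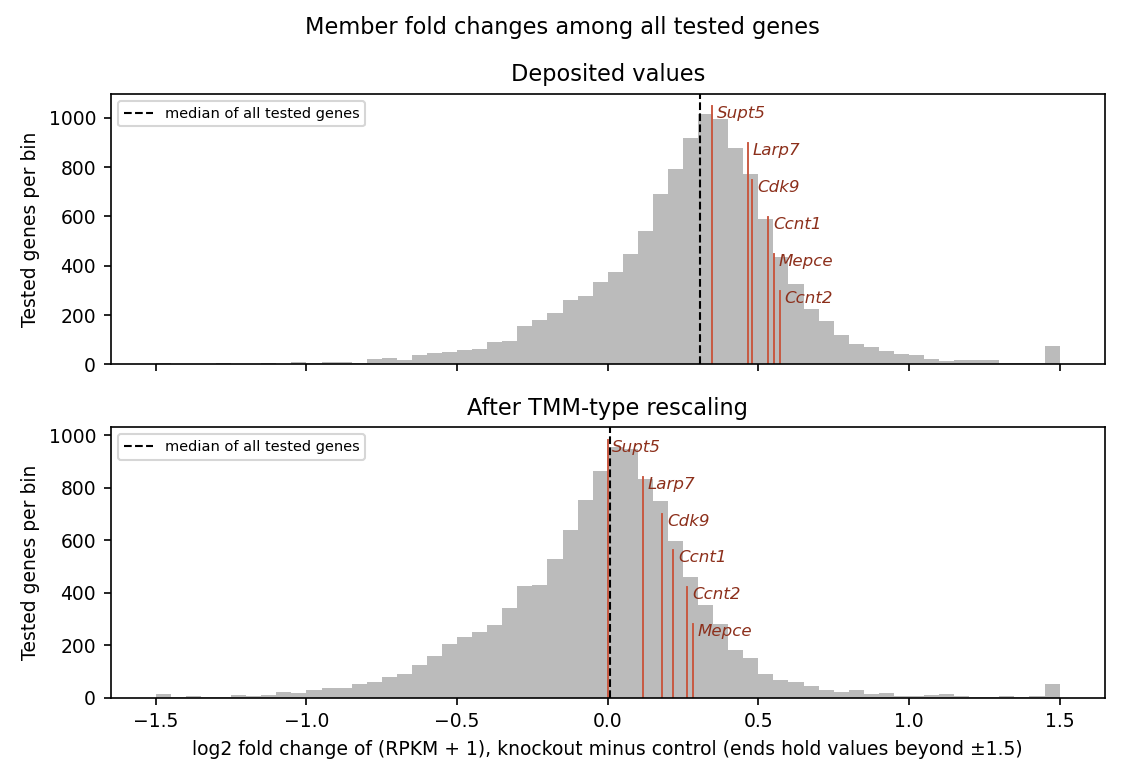
Histograms of the log2 fold change of (RPKM + 1), knockout minus control, over the 11742 tested genes in bins of 0.05, as deposited and after TMM-type rescaling; red lines mark the 6 tested members and dashed lines the medians, 0.31 and 0.01. All 6 members lie to the right of the median in the upper panel, and Supt5 moves to the median in the lower one, within a distribution much wider than the members' range.

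Among all tested genes, the deposited log2 fold changes of the members ranked at percentiles 57.1 (Supt5), 75.7 (Larp7), 77.8 (Cdk9), 83.7 (Ccnt1), 85.3 (Mepce) and 87.0 (Ccnt2). Fold changes varied with level. Over the tested genes with means above 19.0 RPKM, which include Larp7 and Supt5, the median log2 fold change was 0.14, and -0.21 after rescaling. Over those with means of 2.57 to 6.48 RPKM, which include Mepce, Cdk9 and Ccnt2, it was 0.37, and 0.08 after rescaling, and over those between 6.48 and 19.0 RPKM, which include Ccnt1, it was 0.35 and 0.02.

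Deposited values were higher in knockout replicate 2 than in knockout replicate 1 for every member. For Hexim1 the 95% counting intervals of these libraries overlapped (0.919 to 1.256 RPKM in replicate 1 and 1.142 to 1.513 RPKM in replicate 2). Its rescaled order was the reverse, 1.10 and 1.003 RPKM. On the log2(RPKM + 1) scale the tested members stood 0.04 (Supt5) to 0.35 (Mepce) above the control mean in knockout replicate 1 and 0.65 (Supt5) to 0.86 (Ccnt2) above it in replicate 2. Against the medians of 0.12 and 0.50 over all tested genes in those libraries, Supt5 was below in replicate 1, and the other members were above in both. Without knockout replicate 1 limma called 6 of 6 members higher, in a setting where 54.3% of all tested genes were called higher and 4.48% lower; without knockout replicate 2 it called 0 of 6, with 96 of 11742 genes called higher. Without control replicate 1 or 2 it also called 0 of 6, with 37 and 27 genes called higher.

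Per length of transcript, the order of mean levels was Supt5, Larp7, Ccnt1, Ccnt2, Cdk9, Mepce and Hexim1, and the same order held within each of the 4 libraries. Neighbours in this order were separate within both groups for Larp7 over Ccnt1 (20.4 against 6.54 RPKM over all libraries), Cdk9 over Mepce (4.59 against 2.94 RPKM) and Mepce over Hexim1. The ranges of Supt5 and Larp7, Ccnt1 and Ccnt2, and Ccnt2 and Cdk9 overlapped among the knockout libraries.

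Ratios between transcripts of 1 library do not depend on how that library was scaled, and 6 of them were compared by an exact two-sided permutation test, for which 2 against 2 libraries cannot give a p under 0.333. Per cyclin T transcript (Ccnt1 plus Ccnt2), Hexim1 stood at 0.0496 and 0.0621 in control and at 0.0910 and 0.0745 in knockout, a log2 difference of 0.57 (exact p = 0.333, adjusted p = 0.667 over the 6 ratios). Its ratio to Cdk9 was 0.131 and 0.153 in control and 0.239 and 0.2002 in knockout, a log2 difference of 0.63 with the same p-values. Both Hexim1 ratios were higher in each knockout library than in each control library and carry the limit on how Hexim1 came to be listed.

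The ratios between the P-TEFb transcripts overlapped between the groups. Ccnt1 was at 1.21 and 1.26 times Ccnt2 in control and 1.25 and 1.11 times in knockout. Cdk9 was at 0.378 and 0.406 times the sum of the cyclins in control and 0.381 and 0.372 times in knockout, and both comparisons gave an exact p of 0.667. The ratio of Larp7 to Mepce was 6.82 and 8.72 in control and 6.18 and 6.72 in knockout, lower in both knockout libraries (exact p = 0.333). Supt5 stood at 0.322 and 0.436 times its DSIF partner Supt4a in control and at 0.299 and 0.409 times in knockout, with overlapping groups (exact p = 0.667).

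**Figure D3:**
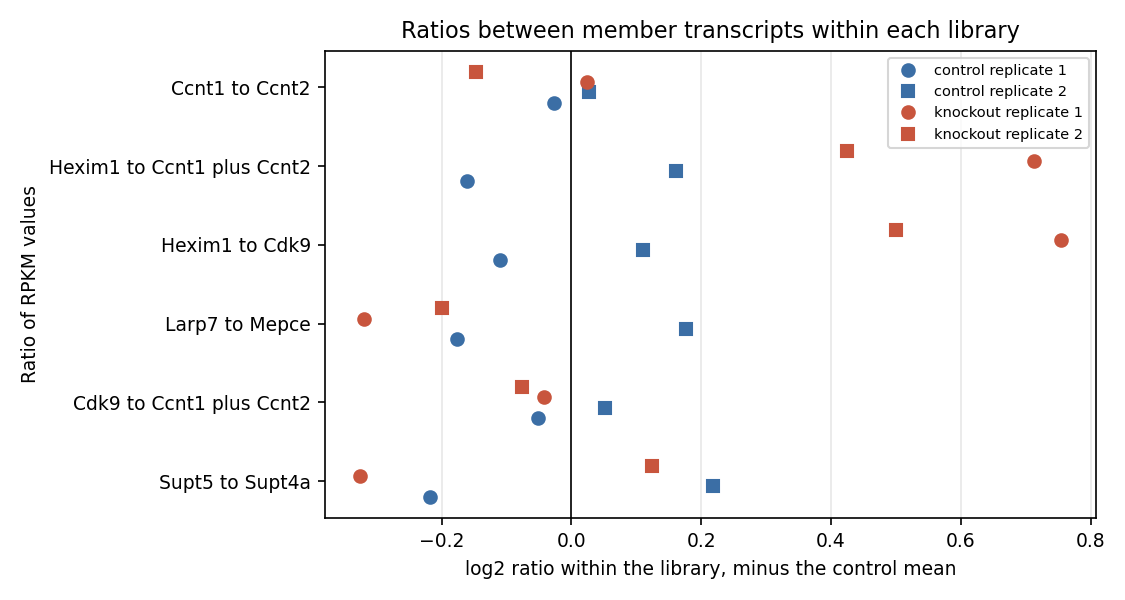
Log2 ratios between member transcripts within each library, minus the mean of the 2 control libraries (horizontal axis), for the 6 ratios compared; blue is control, red knockout, circles replicate 1 and squares replicate 2. The ratios of Hexim1 to the cyclins and to Cdk9 are higher in both knockout libraries than in either control library, Larp7 to Mepce is lower in both, and the other 3 overlap.

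The other genes of pause release came from 9 lists, in which 84 of 89 genes were tested. In 8 of them, 73 genes of the machinery itself, limma called 0 genes higher and 0 lower on the deposited values, and at an unadjusted p under 0.05 it had 3 higher and 0 lower, against 1620 and 288 of all 11742 genes. Limma on rescaled values and voom each called 0, with counts of 1 higher and 2 lower below an unadjusted p of 0.05, against 947 and 895 of all genes after rescaling and 1085 and 905 with voom. Groups did not overlap for 47 of the 73 with higher and 3 with lower knockout values, against 55.5% and 7.38% of all tested genes; after rescaling these counts were 12 and 23, against 27.9% and 26.9%.

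Proteins that bind 7SK or release P-TEFb from it had the lowest median among these lists, 0.02 on the deposited and -0.34 on the rescaled values. Of the 13, 9 were lower without overlap after rescaling, against 26.9% of all tested genes. Many of the list, Hnrnpa2b1 among them, have means above 19.0 RPKM. Over all tested genes above that level the rescaled median was -0.21, and the part of level in this list was not tested. Hnrnpa2b1, an hnRNP protein found on 7SK freed of P-TEFb, stood at 313 and 347 RPKM in control and 272 and 256 RPKM in knockout (log2 fold change -0.32, SE 0.16, adjusted p = 0.307, and -0.68 after rescaling). Hexim2, the paralog that can replace Hexim1 on 7SK, lies downstream of it on chromosome 11 and stood at 1.65 and 1.15 RPKM in control and 1.86 and 2.82 RPKM in knockout (log2 fold change 0.47, SE 0.30, adjusted p = 0.398, and 0.23 after rescaling). Hexim2 values thus exceeded those of Hexim1 in each of the 4 libraries.

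The 3 BET bromodomain genes, which encode readers of acetylated histones, had a median of 0.35, and 0.01 after rescaling. Brd2, a member of that family, stood at 14.5 and 17.3 RPKM in control and 18.9 and 22.3 RPKM in knockout (log2 fold change 0.35, SE 0.24, adjusted p = 0.411, and 0.01 after rescaling). In the list of DSIF and NELF subunits beside Supt5 the median was 0.23. Its smallest p-values belonged to Supt4a (0.46, SE 0.19, adjusted p = 0.197) and the NELF subunit Nelfcd (0.32, adjusted p = 0.398), the latter turning to -0.03 after rescaling. Supt4a went from 55.0 and 46.4 RPKM in the control libraries to 65.4 and 74.2 RPKM in the knockout libraries, without overlap. After rescaling its groups overlapped, with a log2 fold change of 0.10.

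Scaffold and elongation subunits of the super elongation complex, which recruits P-TEFb, had a median of 0.39 over 8 tested genes, and 0.14 after rescaling. Aff3, one of its scaffold proteins, was at 1.94 and 1.68 RPKM in control and 3.03 and 4.34 RPKM in knockout (log2 fold change 0.72, SE 0.33, adjusted p = 0.244). The elongation factor gene Ell was at 5.16 and 6.03 RPKM in control and 6.49 and 12.3 RPKM in knockout (0.60, adjusted p = 0.315). Both kept a positive value after rescaling, 0.46 and 0.28.

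For the PAF1 complex and other elongation factors the median was 0.26, and the smallest p-values were those of Rtf1 (0.48, adjusted p = 0.411, and 0.21 after rescaling) and Paf1 (0.27, adjusted p = 0.434), the latter -0.08 after rescaling. The other transcription kinases and cyclins had a median of 0.34. Their smallest p-values were those of Cdk8, a Mediator kinase (0.53, adjusted p = 0.353), and Mnat1 of the Cdk7 kinase complex (0.55, adjusted p = 0.360), at 0.29 and 0.23 after rescaling. Among subunits of RNA polymerase II (median 0.29) they were those of Polr2e (0.42, adjusted p = 0.252) and Polr2i (0.39, adjusted p = 0.356), at 0.06 and 0.04 after rescaling. In Integrator, which can end transcription of paused polymerase (median 0.38), they were those of Ints13 (0.51, adjusted p = 0.358) and Ints4 (0.42, adjusted p = 0.368), at 0.18 and 0.08 after rescaling. After rescaling the medians of these 4 lists lay at -0.09, 0.04, -0.06 and 0.05.

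The last list held 11 short-lived transcripts that fall when CDK9 is inhibited. On the deposited values limma called 3 of the 11 higher and 0 lower, against 3.33% and 0.86% of all tested genes. All 11 log2 fold changes were positive, as were 9762 of all 11742. In 8 of the 11 every knockout value lay above every control value, as for 55.5% of tested genes. After rescaling that held for 4 of the 11, against 27.9%. The list median was 0.60, or 0.24 after rescaling. Jun, an AP-1 subunit, rose from 37.3 and 48.1 RPKM to 68.4 and 78.7 RPKM (log2 fold change 0.78, SE 0.19, adjusted p = 0.00291). The stress-induced genes Ier3 (0.78, SE 0.23, adjusted p = 0.0254) and Ier2 (0.60, SE 0.19, adjusted p = 0.0361) rose with it. After rescaling the log2 fold changes of Jun, Ier3 and Ier2 were 0.42, 0.43 and 0.24, with adjusted p of 0.347, 0.266 and 0.530. Limma on rescaled values called 0 of the 11, with 2 higher at an unadjusted p under 0.05, against 947 of all 11742 genes. Voom called 0, also with 2 at that threshold, against 1085 of 11737 genes. Without knockout replicate 1, which leaves 1 knockout library, the log2 fold changes of Jun, Ier3 and Ier2 were 0.88, 1.01 and 0.71. Without knockout replicate 2 they were 0.68, 0.54 and 0.48.

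**Figure D4:**
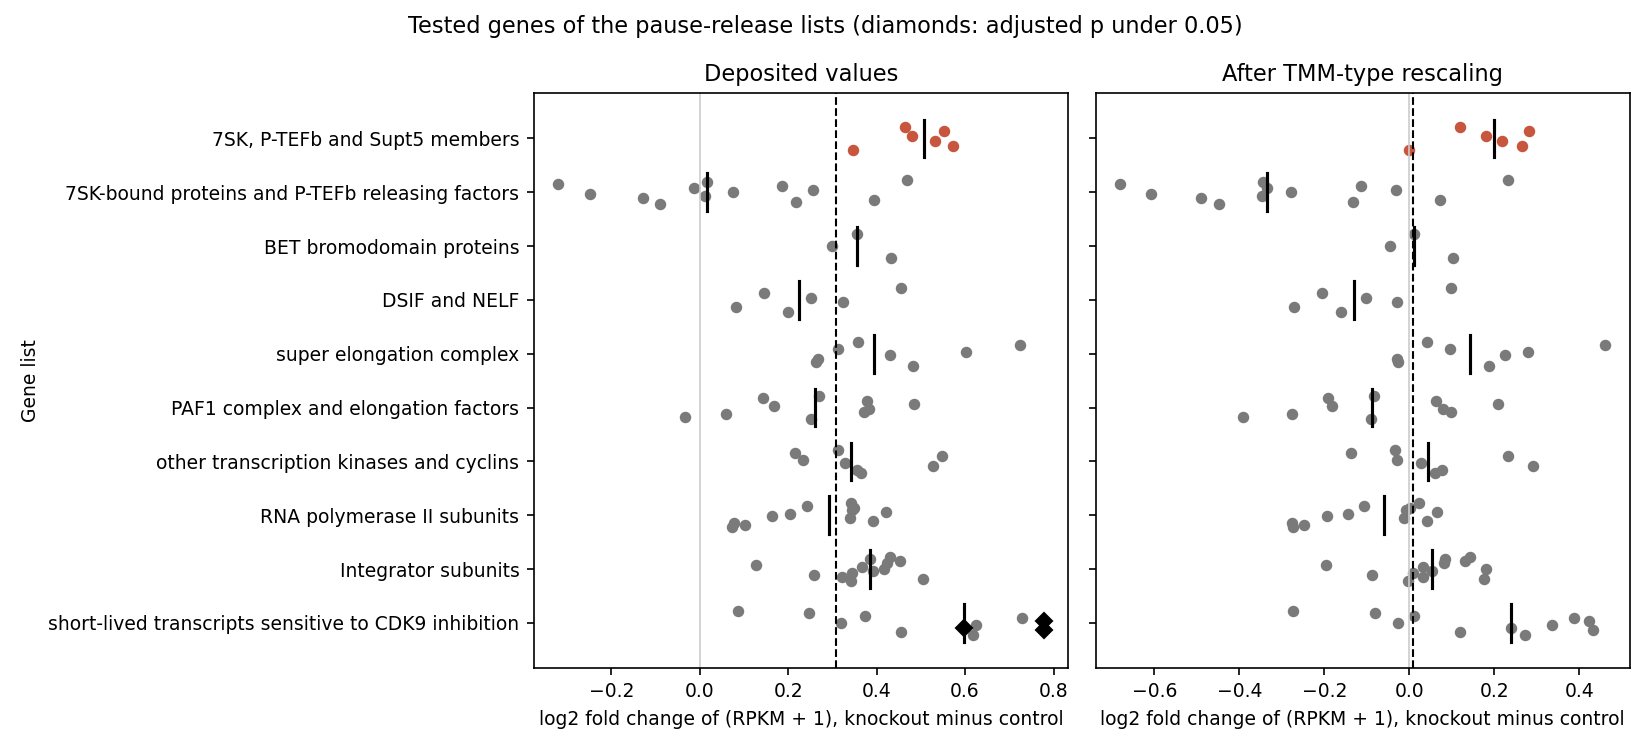
Log2 fold change of (RPKM + 1), knockout minus control, for each tested gene of the members (red) and the 9 other lists (grey, black diamonds where the adjusted p is under 0.05), as deposited and after TMM-type rescaling; short black lines are list medians and dashed lines the medians of all tested genes, 0.31 and 0.01. The only diamonds are Jun, Ier3 and Ier2 in the left panel, and the list of 7SK-bound proteins lies furthest to the left in both.

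The genes whose pattern over the 4 libraries was most like the mean pattern of the 6 tested members were sought among protein-coding genes by the root mean square distance of centred log2(RPKM + 1) values. They were Ttc4 (0.0075), Zfp1 (0.0088), Rubcn (0.0106), Gcdh (0.0109) and Nxt2 (0.0111). The members themselves lay at 0.0259 (Cdk9) to 0.109 (Supt5) from their own mean pattern. The genes above were picked for the smallest distance and the members were not, so these distances cannot be compared. Over 4 libraries this likeness is a description.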

How the data were processed

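The deposited table holds 1 value per gene and library. The authors' values are in RPKM, a unit identified here from the values: each deposited value times the longest GENCODE M21 transcript length is a whole multiple of 1 step per library, within a tolerance of 0.1 for 99.4% to 99.6% of values of up to 200 reads. Per the submitters' processing notes, the genome build was mm10. The aligner, the counter and its filters were not found in the sources used here. Genes without reads stand at 0.001. A transcript length was found for 12384 of 12390 genes.

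Genotype was tested on log2(RPKM + 1) with limma 3.58.1 (R 4.3.3), whose prior variance followed the mean level, for the 11742 genes averaging 1 RPKM or more, and Benjamini-Hochberg adjusted p under 0.05 was called. The fit has 2 residual degrees of freedom and an infinite prior, so that each gene's own spread is replaced by the trend. The prior was finite in the limma fit on rescaled values and in voom. Each gene's own spread counts there in part, so these fits differ from the first in spread as well as scale. Alternatives were other pseudocounts, filters, scalings and spreads, voom on recovered reads, a replicate block and leaving out each library. Voom took the TMM-type factors into its library sizes. Ratios were tested with SciPy 1.17.1. The scripts were tested on simulated data. Named genes are the members, the called genes of each list (at most 5, otherwise the 2 smallest p-values), the genes of the ratios, Ddx21 and the 5 nearest patterns. One gene that this rule names is not reported here. Members and lists were chosen with earlier results of these data known. Replicates differed beyond sampling noise (chi-square per degree of freedom 48.5 in control and 150 in knockout), so none was merged.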

Additional observations from a re-analysis of the deposited data

How the results depend on the processing

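Hexim1 aside, each tested member kept a positive log2 fold change and stayed uncalled under the alternatives that tested it, leaving out a library aside (a minimum of 5 RPKM drops Mepce and Cdk9), except Supt5, which turned to -5.2e-05 after TMM-type rescaling, -6.6e-05 with voom and -0.010 with median centring. Hexim1 moved from 0.53 to 0.37 after rescaling and to 0.84 with voom, both without a filter and chosen after seeing the data. Leaving out 1 library gave 0 to 6 members called higher, 0 to 53 pathway genes called higher and 0 to 1 lower, and 27 to 6381 higher and 5 to 526 lower among all genes. The log2 fold changes then ran from 0.46 to 0.61 for Hexim1, 0.16 to 0.77 for Larp7, 0.35 to 0.76 for Mepce, 0.25 to 0.71 for Cdk9, 0.31 to 0.76 for Ccnt1, 0.28 to 0.86 for Ccnt2 and 0.045 to 0.65 for Supt5; the 6 tested members were called without knockout replicate 1, and Hexim1 was not tested there. The ratio of Ccnt1 to Ccnt2 ran from -0.15 to 0.024 and that of Supt5 to Supt4a from -0.33 to 0.12 on the log2 scale. Hexim1 to the cyclins turned to -0.060 with 1 RPKM added to both terms, which outweighs Hexim1 itself. With that addition Hexim1 to Cdk9 went from 0.63 to 0.054. Larp7 to Mepce went from -0.26 to -0.087, with an exact permutation p of 0.667. The 3 pathway genes called higher became 0 with TMM-type rescaling, median centring, quantile normalization, voom, no trend and each gene's own spread, and 1 with the replicate block. All genes called higher and lower, 391 and 101, became 0 and 0 with TMM-type rescaling, median centring, quantile normalization and each gene's own spread, and 49 and 22 with voom. A minimum of 5 RPKM, which tests fewer genes, left 235 higher, no trend left 52 lower, and the replicate block left 175 higher and 64 lower. Same-numbered libraries deviated from their group means with a correlation of 0.07 over genes, which gives no pairing over 2 pairs. With TMM-type rescaling and voom, the treatment of spread changed together with the scale, and the part of each in the counts was not tested. The cause of the other changes was not tested. With 93 to 201 reads per library, Hexim1 is the member that depth limits most.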
